A study of Homo sapiens with 28 samples.

Results

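GC-rich protein-coding promoters were examined in 10 lists of broad ChIP-seq peaks. A promoter was the 2-kb window from 1 kb before to 1 kb after the start of an autosomal protein-coding gene in GENCODE release 44 (hg38), and it was called GC-rich when 55% or more of its bases were G or C. Of 19111 autosomal protein-coding promoters, 9699 (50.8%) were GC-rich, and the other 9412 are called GC-poor here. No peak entered this rule, although the members were chosen with earlier results of these data known. The GC-rich windows held a median of 60.6% GC and 127 CpG dinucleotides, against 49.0% GC and 49 CpG in GC-poor ones. Members were not independent of each other, since 2067 of them (21.3%) overlapped the window of another member.

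The cells were U2OS, a human osteosarcoma line. H3K36me2 was measured with the antibody ab9049 in wild-type cells, with 2 unirradiated biological replicates and 2 collected 3 h after UV-C at 20 J/m2, each against inputs. The carboxy-terminal domain (CTD) of ASH1L, carrying a Flag tag and expressed from a transfected plasmid with the strong CMV promoter, was measured with an anti-Flag antibody in ASH1L-/- cells, in 3 replicates without UV and 3 at 3 h after the same dose. Its controls were ASH1L-/- cells given empty vector, and the ASH1L-/- cells came from isolated colonies, so the CTD values describe an overexpressed fragment in a clonal knockout. The 2 experiments therefore differ in genotype as well as in antibody.

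Dimethylation of lysine 36 on histone H3 (H3K36me2) is spread over gene bodies and intergenic chromatin and is written by enzymes of the NSD family and by ASH1L. CpG islands, the CpG-dense stretches at which most housekeeping and many developmental genes start, are usually unmethylated, and KDM2A binds such DNA through its CxxC zinc finger and removes H3K36me2. ASH1L carries a SET domain that methylates H3, and acts with MRG15, a reader of H3K36 methylation.

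CpG content varied widely among GC-rich promoters, and the sequences that follow show that range. They are the 200 bases just before the gene start of the highest placed promoter in each of 6 rankings described with the results, passing over those whose 200 bases touch an annotated transcript and some that are not shown here. Capitals mark CpG. The first 3 come from H3K36me2 rankings, namely KRT7 (chr12:52232320-52232519, plus strand, covered in all 4 lists), ENOSF1 (chr18:712663-712862, minus strand, covered only without UV) and SH2D3C (chr9:127778711-127778910, minus strand, covered only at 3 h), all in hg38.
KRT7: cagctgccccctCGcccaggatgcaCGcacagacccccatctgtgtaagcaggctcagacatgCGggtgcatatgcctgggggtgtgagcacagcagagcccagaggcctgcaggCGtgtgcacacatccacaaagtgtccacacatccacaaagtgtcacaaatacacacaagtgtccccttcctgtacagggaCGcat
ENOSF1: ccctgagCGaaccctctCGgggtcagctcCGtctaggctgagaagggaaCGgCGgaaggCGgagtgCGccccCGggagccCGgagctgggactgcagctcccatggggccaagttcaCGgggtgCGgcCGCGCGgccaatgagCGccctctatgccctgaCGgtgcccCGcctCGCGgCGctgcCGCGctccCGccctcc
SH2D3C: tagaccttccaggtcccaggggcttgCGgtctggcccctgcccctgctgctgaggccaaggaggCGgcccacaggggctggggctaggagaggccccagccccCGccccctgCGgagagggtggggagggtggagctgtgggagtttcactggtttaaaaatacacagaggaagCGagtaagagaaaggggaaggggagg
The 200 bases held 5 CpG at KRT7, 23 at ENOSF1 and 5 at SH2D3C. The next 3 come from CTD rankings, namely PERCC1 (chr16:1430878-1431077, plus strand, covered in all 6 lists), BCAN (chr1:156641190-156641389, plus strand, covered only without UV) and CYBA (chr16:88651084-88651283, minus strand, covered only at 3 h).
PERCC1: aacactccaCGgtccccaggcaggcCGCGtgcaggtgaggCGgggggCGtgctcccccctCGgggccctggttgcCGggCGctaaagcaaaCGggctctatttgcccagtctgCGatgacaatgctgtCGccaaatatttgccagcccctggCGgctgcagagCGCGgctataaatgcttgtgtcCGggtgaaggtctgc
BCAN: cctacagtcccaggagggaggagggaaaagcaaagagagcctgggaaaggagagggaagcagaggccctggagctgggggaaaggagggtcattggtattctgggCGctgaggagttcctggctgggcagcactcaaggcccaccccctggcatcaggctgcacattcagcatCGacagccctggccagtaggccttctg
CYBA: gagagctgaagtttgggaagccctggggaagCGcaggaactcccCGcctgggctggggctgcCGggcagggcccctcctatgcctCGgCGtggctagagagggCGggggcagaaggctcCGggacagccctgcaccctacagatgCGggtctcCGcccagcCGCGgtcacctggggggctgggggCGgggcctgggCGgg
These held 15, 2 and 13 CpG.

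Each list held exactly 500000 peaks ordered by −log10 p, of which the weakest had a −log10 p between 1.22 and 1.42, so the peak number could not differ between conditions and the autosomal density was between 178.4 and 179.1 peaks per Mbp in every list. The lists carry no read counts, and the depth behind a peak is unknown. In each CTD list 14 or 15 peaks reached a −log10 q of 1.3, and 13 or 14 of them lay in ASH1L, the gene on the plasmid, with a highest fold enrichment between 5.87 and 41.2. None of these CTD peaks was centred in a GC-rich promoter, where the strongest CTD peaks had a fold enrichment between 2.69 and 2.94. Among the CTD lists, replicate 1 without UV and replicate 3 at 3 h stood apart, covering 31.8% and 31.5% of the bases of GC-rich windows outside promoters, whereas the other 4 covered between 11.6% and 16.7%.

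H3K36me2 covered less of the GC-rich promoters at 3 h post UV than without UV. In unirradiated cells peaks lay over 12.05% of their bases in replicate 1 and 14.1% in replicate 2, and at 3 h over 6.01% and 6.71%. Both 3 h lists lay below both lists without UV. The means were 13.1% ± 1.48 without UV and 6.36% ± 0.493 at 3 h (SD, n = 2), which is 2.06 times lower, and the two-sided exact permutation test gave p = 0.333, the smallest that 2 lists against 2 allow (adjusted p = 0.667 over 10 tests).

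Peak density, counted from peak centres, was lower too. It was 101.8 and 120.2 peaks per Mbp without UV and 62.03 and 70.7 at 3 h. The means were 111.0 ± 13.01 and 66.4 ± 6.12 (SD, n = 2), a log2 ratio of −0.74 for which the exact permutation p was 0.333 (adjusted p = 0.667). The number of GC-rich promoters with at least 1 covered base was 3472 and 3906 without UV and 2000 and 2156 at 3 h. Promoters with at least 1000 covered bases numbered 711 and 914 without UV and 314 and 350 at 3 h. Peaks centred in these promoters were also narrower at 3 h, their median width being 608 bp ± 11.3, whereas without UV it was 736.5 bp ± 3.54. The same held at GC-poor promoters (630.5 bp ± 12.02 and 703.5 bp ± 6.36) and over whole lists (569 bp ± 18.4 and 616 bp ± 7.07). Their median fold enrichment was 1.77 ± 0.0264 at 3 h and 1.87 ± 0.00517 without UV (SD, n = 2).

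GC-poor promoters differed less between the conditions. Their covered share was 16.04% and 15.3% in the unirradiated lists, and 11.8% and 12.2% at 3 h. The log2 ratio of peak density at GC-rich to GC-poor promoters was −0.63 and −0.38 without UV and −1.09 and −0.94 at 3 h, a difference of −0.52 with no overlap between conditions (exact permutation p = 0.333, adjusted p = 0.667). GC-rich promoters therefore held fewer H3K36me2 peaks than GC-poor ones in all 4 lists, and the gap was wider in both 3 h lists.

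GC-rich sequence outside promoters was likewise covered less at 3 h. In 45810 windows of 2 kb with 55% GC or more that touched no promoter, peaks covered 22.6% and 27.5% of bases without UV and 11.8% and 12.5% at 3 h. Density at GC-rich promoters relative to these windows gave log2 ratios of −0.74 and −0.78 without UV and −0.76 and −0.68 at 3 h. These overlapped, with a difference of 0.035 (exact permutation p = 0.667, adjusted p = 0.833). Promoters thus held fewer peaks than other sequence of high GC in all 4 lists, and with 2 lists per condition a difference between conditions particular to promoters was not detectable.

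**Figure D1:**
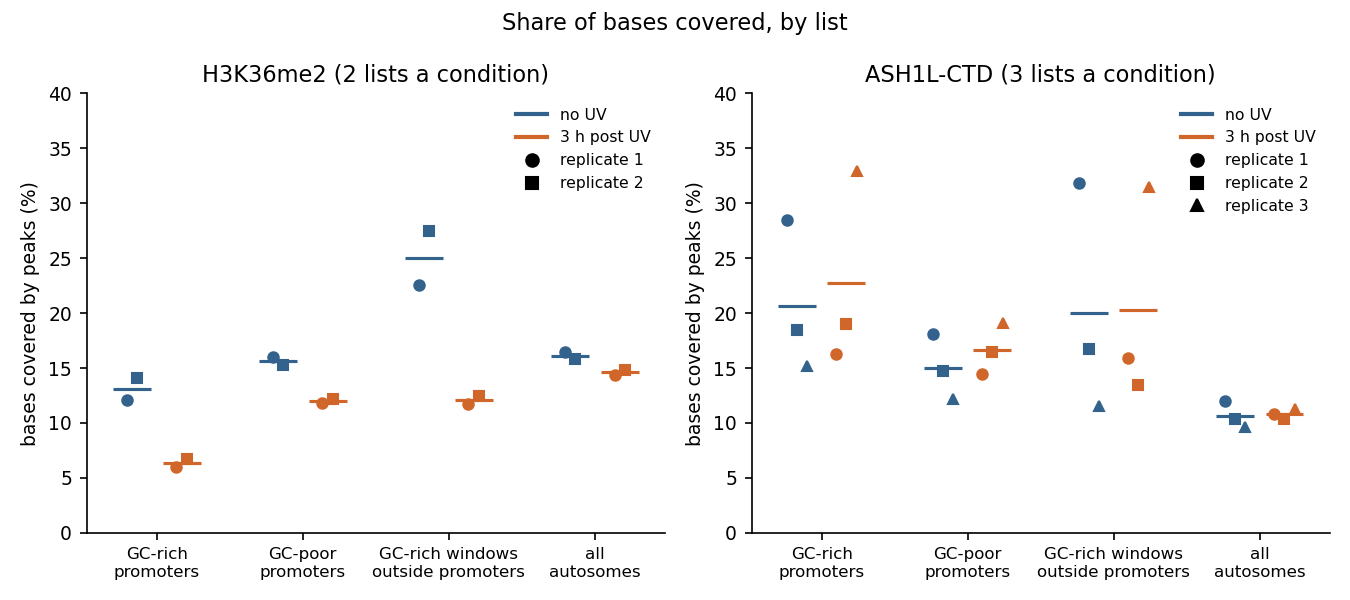
Share of bases covered by peaks (%, vertical axis) in GC-rich promoters, GC-poor promoters, GC-rich windows outside promoters and all autosomes, one point per list with the shape giving the replicate number, and short lines for the mean of each condition. H3K36me2 at GC-rich promoters lies at 12.05% and 14.1% without UV, and 3 h later at 6.01% and 6.71%, while the CTD points of the 2 conditions overlap.

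Among all promoters, the H3K36me2 difference between conditions followed GC content. Below 40% GC, where 1340 promoters fell, coverage was 9.94% ± 1.02 without UV and 10.4% ± 0.225 at 3 h (log2 ratio 0.061). Between 55% and 60% it was 13.8% ± 1.04 and 7.32% ± 0.439 (4307 promoters, log2 ratio −0.91), and at 70% or more 6.64% ± 1.59 and 2.30% ± 0.301 (610 promoters, log2 ratio −1.53, all SD, n = 2). Each step up in GC between these gave a lower log2 ratio. No step appeared at the threshold itself, since promoters of 54% to 55% GC were covered to 14.6% and 8.35%, and those of 55% to 56% to 14.3% and 8.53%. In these and the following classes each promoter counts on its own, also where windows overlap.

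**Figure D2:**
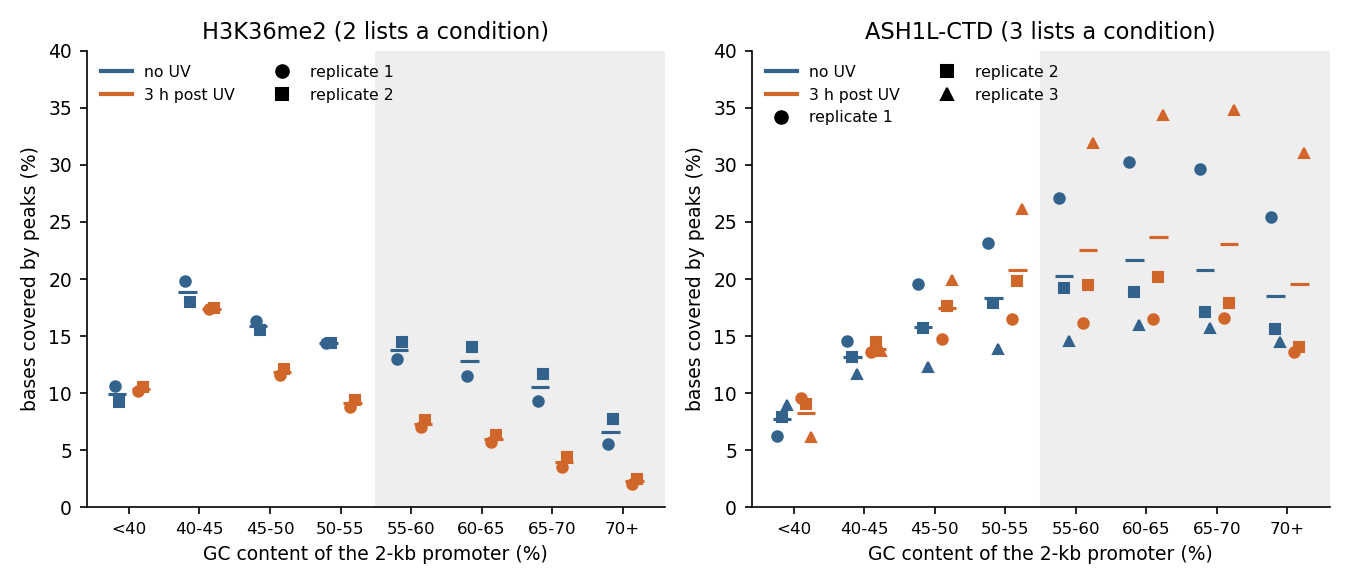
Share of bases covered by peaks (%, vertical axis) in promoters grouped by the GC content of their 2-kb window (horizontal axis, %), one point per list, lines for the mean of each condition, and grey shading for the GC-rich promoters. H3K36me2 conditions lie together below 40% GC and apart at 70% GC or more (6.64% and 2.30%), whereas CTD coverage is lowest below 40% GC (7.73% without UV).

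Within GC-rich promoters, H3K36me2 followed the ratio of observed to expected CpG. The ratio compares the CpG count with that expected from the C and G counts, and 6952 members (71.7%) reached 0.6, a value often used for CpG islands. In the 1092 members with a ratio under 0.4, peaks covered 30.9% and 36.2% of bases without UV and 17.2% and 17.7% at 3 h. In the 2279 members with 0.8 or more, they covered 5.72% ± 0.697 and 2.83% ± 0.416 (SD, n = 2). Members poor in CpG were thus covered several times more than CpG-rich ones in all 4 lists, but the log2 ratio between conditions was similar in the 4 CpG classes, between −1.16 and −0.94.

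GC and CpG content could be read apart. Below 62% GC, coverage of members with a CpG ratio under 0.6 exceeded that of the others by 1.63 and 1.67 on the log2 scale without UV and by 1.66 and 1.58 at 3 h. At 62% GC or more the excess was 1.34 and 1.46 without UV and 1.27 and 1.28 at 3 h. By contrast, among members with a CpG ratio of 0.6 or more, coverage at 62% GC or more relative to lower GC gave log2 ratios of −0.052 and 0.094 without UV and −0.43 and −0.29 at 3 h. Among members with a CpG ratio under 0.6, the same log2 ratios were −0.34 and −0.12 without UV and −0.82 and −0.58 at 3 h. Level differed with CpG content in every list, and among CpG-poor members it was lower at high GC in every list. The contrast between high and low GC differed between conditions with no overlap in both CpG classes.

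**Figure D3:**
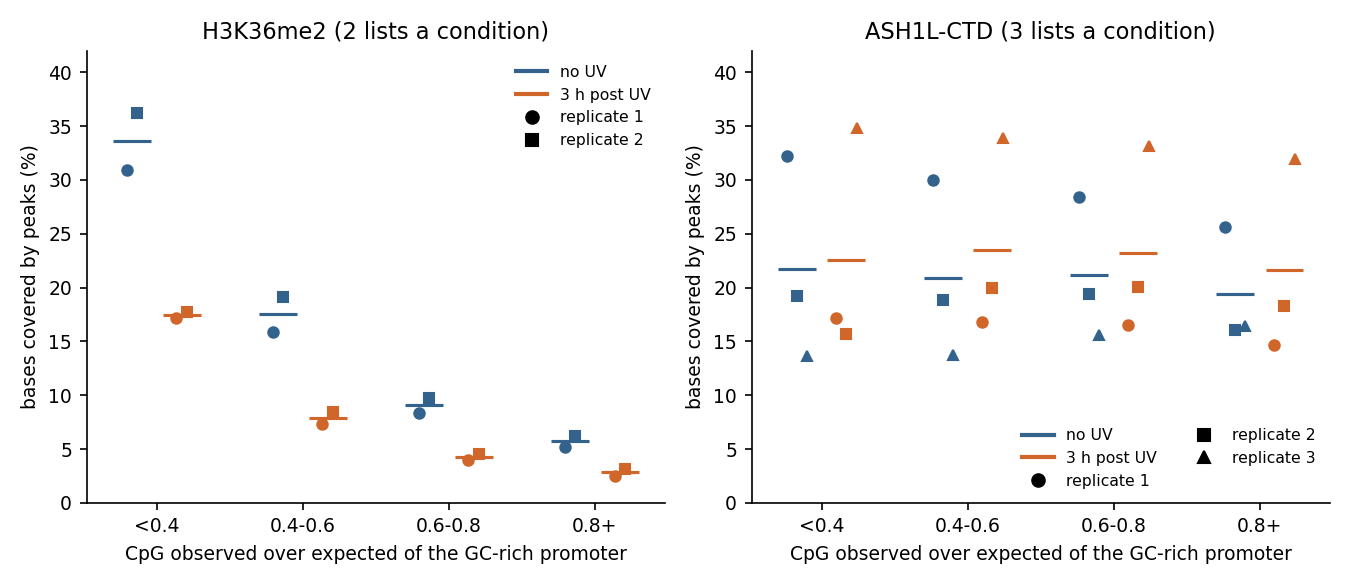
Share of bases covered by peaks (%, vertical axis) in GC-rich promoters grouped by their ratio of observed to expected CpG (horizontal axis), one point per list and lines for the mean of each condition. Coverage by H3K36me2 goes from 33.6% to 5.72% without UV across the 4 classes, while CTD means stay between 19.4% and 23.5%.

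Around the start, H3K36me2 formed a trough. Between 200 bases before and 300 after the start of GC-rich promoters, 9.72% ± 1.62 of bases were covered without UV and 4.57% ± 0.404 at 3 h, whereas the flanks from 4 to 5 kb away on either side were covered to 16.02% ± 0.873 and 9.28% ± 0.0181 (SD, n = 2). Core relative to flank gave log2 ratios of −0.85 and −0.61 without UV and −1.12 and −0.93 at 3 h. At GC-poor promoters the ratio lay between 0.076 and 0.21 in the 4 lists, so the core itself was not below the flanks. It lay between dips, however. Mean coverage was 13.2% without UV and 9.85% at 3 h from 400 to 300 bases before the start. From 800 to 900 bases after it, the means were 13.2% and 9.70%, against flanks of 13.8% and 11.2%. At GC-rich promoters coverage was highest upstream, in 100-base bins between 1300 and 1700 bases before the start. There the lists without UV reached 21.0% and 22.6%, and those at 3 h 13.2% and 13.1%.

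The trough was lopsided. The first kb downstream of the start was covered less than the kb upstream, at 10.8% ± 1.74 against 14.1% ± 1.13 without UV and 4.85% ± 0.509 against 7.22% ± 0.421 at 3 h (SD, n = 2). Downstream relative to upstream coverage gave log2 ratios of −0.48 and −0.31 without UV and −0.62 and −0.53 at 3 h (difference −0.18, exact permutation p = 0.333, adjusted p = 0.667). With windows of 500 bp either side the difference was 0.035, so its sign depended on the window.

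**Figure D4:**
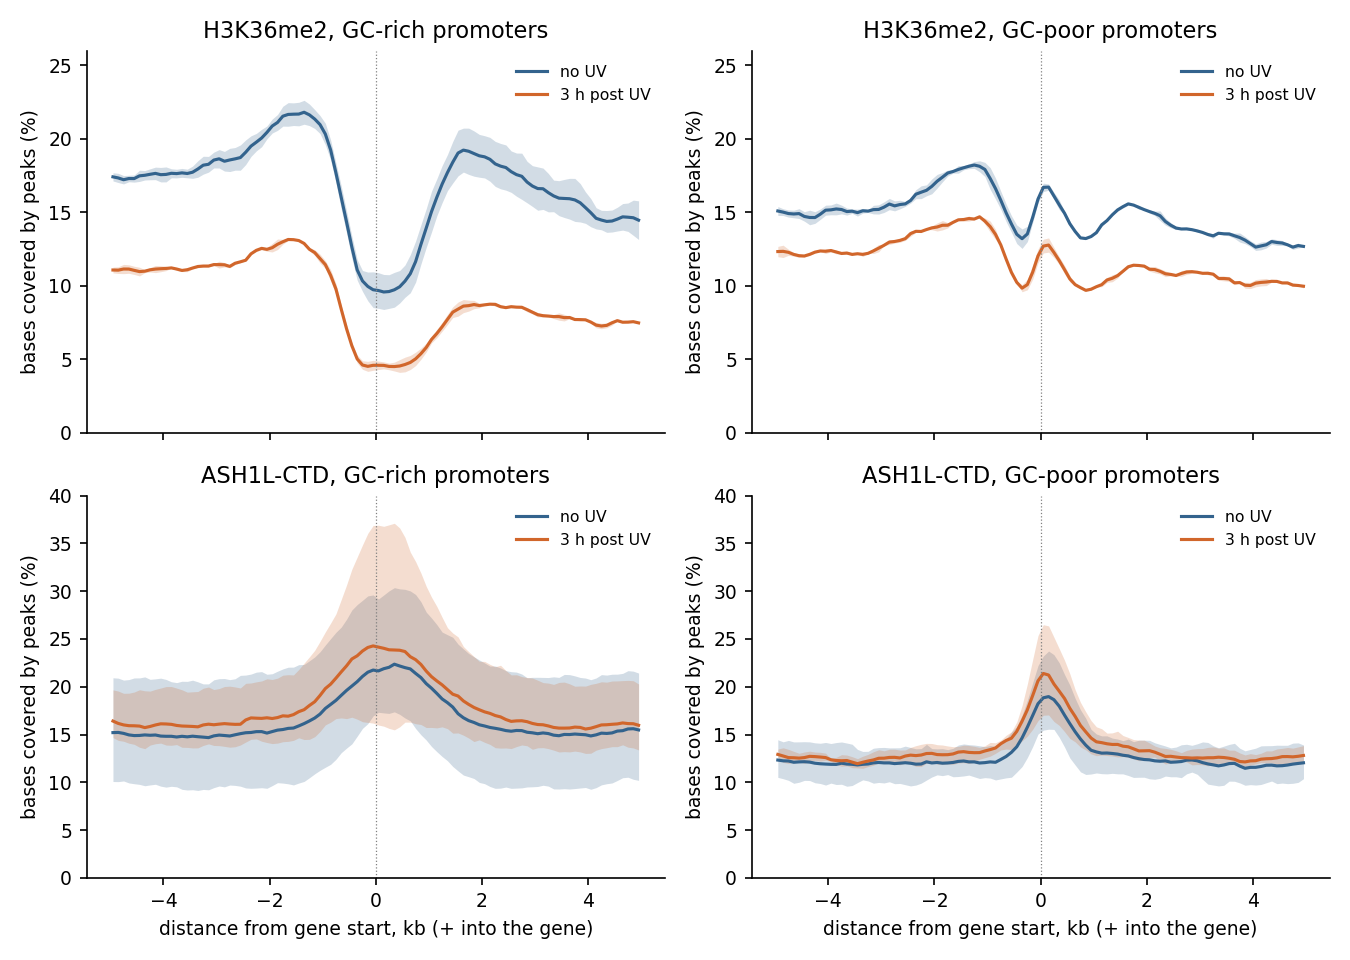
Share of bases covered by peaks (%, vertical axis) in 100-base bins from 5 kb before to 5 kb after the gene start (horizontal axis, kb, positive into the gene), with lines for the mean of each condition and bands from the lowest to the highest list. H3K36me2 has a trough over the start of GC-rich promoters (9.72% without UV and 4.57% at 3 h in its core), and the CTD is higher there than in the flanks (21.8% and 24.1% in the core).

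Other features of GC-rich promoters went with H3K36me2 level. Where another protein-coding gene started within the upstream kb on the opposite strand (1003 members, 10.3%), coverage was 4.87% ± 0.673 without UV and 2.05% ± 0.326 at 3 h, against 13.4% ± 1.52 and 6.49% ± 0.481 at the rest (SD, n = 2). These bidirectional promoters were lower in all 4 lists, their log2 ratio to the rest being −1.48 and −1.43 without UV, and −1.76 and −1.58 at 3 h. A TATA box core, TATAAA, searched between 40 and 16 bases before the start on the gene's strand, was present in 185 members (1.91%, against 3.04% of all promoters), which were covered to 20.5% ± 1.96 and 10.3% ± 0.504, against 12.3% ± 1.42 and 5.95% ± 0.464 at the rest. The letters GGGCGG, part of the GC box bound by SP1, were searched on both strands of the whole window and found in 97.4% of members and 79.3% of all promoters. The 257 members without them were covered to 29.6% ± 3.63 and 15.99% ± 0.570 and had a median CpG ratio of 0.26, against 0.71 for those with them.

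At GC-rich promoters the difference between conditions was spread over the autosomes. Over all autosomal bases, H3K36me2 peaks covered 16.1% ± 0.435 without UV and 14.6% ± 0.331 at 3 h (SD, n = 2). On all 22 autosomes, both 3 h lists covered less of the GC-rich promoters than both lists without UV. The log2 ratio of means ranged from −1.46 on chromosome 22 to −0.75 on chromosome 4.

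Counted promoter by promoter, 4852 GC-rich promoters (50.03%) were under no H3K36me2 peak in any list, and 1264 (13.03%) had a covered base in all 4. The members covered in all 4 had a median CpG ratio of 0.61, and 4.27% of them were bidirectional. The members covered in none had a median CpG ratio of 0.74, and 13.7% were bidirectional. At 1852 members (19.1%) both 3 h lists had fewer covered bases than both lists without UV, and at 116 (1.20%) both had more. The same calls took 16.3% and 2.98% of all promoters.

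Some members were covered in one condition only. At 805 GC-rich promoters (8.30%) every list without UV and no 3 h list had a covered base, and at 35 (0.361%) the reverse held. Over all promoters these shares were 6.29% and 0.869%, and over GC-poor ones 4.22% and 1.39%. These calls are loose, since a single base was enough, and the lower of the 2 covering lists had a median of 272 covered bases in the first class and 185 in the second. With only the second replicate of each condition the counts were 2035 and 285, and with only the first they were 1778 and 306. No test applies to these counts.

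H3K36me2 covered some windows from end to end. At 28 members all 2000 bases were covered in all 4 lists, and of these the 6 whose lowest fold enrichment over the lists was highest were DKK1, BNC1, TMEM239, KRT7, CIDEA and PAX8. DKK1 encodes a secreted inhibitor of Wnt signalling, and its strongest overlapping peak had a fold enrichment of 3.67 and 4.15 without UV and 2.74 and 2.67 at 3 h. BNC1, a zinc finger protein of keratinocytes, had 2.78 and 3.40 without UV and 2.44 and 2.48 at 3 h. KRT7, a keratin of simple epithelia, had 3.01 and 3.33 and then 2.38 and 2.46. Although the coverage of these windows did not differ between lists, both fold enrichments at 3 h lay below both without UV at DKK1, BNC1 and KRT7. CIDEA, a lipid droplet protein, had 2.61 and 2.291 without UV and 2.34 and 2.295 at 3 h, so its conditions overlapped.

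The members covered only without UV with the most bases were led by NKX2-6, a homeobox factor of the heart, with 1874 and 1787 covered bases in the lists without UV and 0 in both 3 h lists. STPG3 followed with 1964 and 1751 bases, and ENOSF1, an enolase-family enzyme, with 1639 and 1880. GDNF, a neurotrophic factor, had 1629 and 1763, LRRC55, an accessory protein of potassium channels, had 1586 and 1589, and OPLAH, an enzyme of the glutathione cycle, had 1420 and 1644. Their peaks were weak, with fold enrichments between 1.63 and 2.04. The CpG ratio was 0.72, 0.91 and 0.78 at NKX2-6, ENOSF1 and GDNF and 0.21, 0.22 and 0.28 at STPG3, LRRC55 and OPLAH, so both kinds of promoter were among them.

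Members covered only at 3 h had less coverage, with a median of 185 bases in the lower covering list, against 272 for those covered only without UV. SH2D3C, an adaptor protein, had 940 and 993 covered bases at 3 h and 0 in both lists without UV. The next were PRSS41, a serine protease (432 and 357), DCP1A, a subunit of the mRNA decapping complex (368 and 337), OXSR1, a kinase that regulates ion cotransporters (328 and 321), CFAP20, a cilia protein (299 and 332), and FEM1C, a receptor of a ubiquitin ligase (397 and 298). All but SH2D3C lay under 500 bases, against more than 1400 for the members named above that were covered only without UV. The top 6 were drawn from 35 members here and from 805 there, so these extremes cannot be compared directly.

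CTD peaks were commoner at GC-rich promoters than H3K36me2 peaks, and did not separate the conditions. For replicates 1, 2 and 3 in turn, peaks covered 28.4%, 18.4% and 15.2% of bases in unirradiated cells, and 16.2%, 18.99% and 32.9% at 3 h. The conditions overlapped, and the highest list of each was the one that also stood apart in GC-rich windows. The means were 20.7% ± 6.91 and 22.7% ± 8.94 (SD, n = 3). Their log2 ratio was 0.13, with an exact permutation p of 0.6 (adjusted p = 0.833, smallest possible p = 0.1). Without replicate 3 of both conditions the log2 ratio was −0.41 and without replicate 1 it was 0.63. Leaving out the 2 lists that stood apart, a choice made after seeing the data, gave 16.8% and 17.6% (log2 ratio 0.067). The empty-vector controls were pooled at 3 h and not without UV, so this step and the irradiation cannot be told apart in the CTD lists.

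CTD peak density was 337, 275 and 244 peaks per Mbp without UV and 248, 264 and 379 at 3 h (means 285 ± 47.3 and 297 ± 71.7, SD, n = 3). The exact permutation test gave p = 0.8 (adjusted p = 0.889). Without replicate 3 its log2 ratio was −0.26, against 0.058 with all lists. In all 6 lists GC-rich promoters held more CTD peaks than GC-poor ones, with log2 ratios between 0.13 and 0.49, and more than GC-rich windows outside promoters, with log2 ratios between 0.042 and 0.35. Neither ratio differed between conditions beyond the spread of the lists (differences −0.023 and 0.034, exact permutation p = 0.9 and 0.6, adjusted p = 0.9 and 0.833). By density over the full lists, GC-rich promoters thus held more CTD peaks and fewer H3K36me2 peaks than both comparison classes, in every list. By bases covered, CTD replicate 1 without UV alone went the other way, with 28.4% against 31.8% in GC-rich windows. At a −log10 p of 3 or more the mean CTD log2 ratio to GC-poor promoters was −0.19 without UV and −0.46 at 3 h. Between 2 and 17 such peaks were centred in GC-rich promoters in each CTD list.

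CTD coverage was higher around the start than in the flanks, unlike that of H3K36me2. Between 200 bases before and 300 after the start, 21.8% ± 6.83 of bases were covered without UV and 24.1% ± 11.1 at 3 h, and in the flanks 15.1% ± 5.61 and 16.01% ± 3.49 (SD, n = 3). Core relative to flank was above 0 on the log2 scale in all 6 lists, between 0.21 and 0.87. The highest bin lay 300 to 400 bases after the start in all lists without UV and in replicate 3 at 3 h, and before the start in the other 2 lists at 3 h. GC-poor promoters also had more in the core than in the flanks, with ratios between 0.45 and 0.92. The log2 ratio of downstream to upstream coverage was 0.12, 0.066 and 0.23 without UV and −0.047, 0.0015 and 0.16 at 3 h, which overlapped (exact permutation p = 0.3, adjusted p = 0.667).

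Among all promoters CTD coverage differed with GC content. Below 40% GC its means were 7.73% ± 1.35 without UV and 8.23% ± 1.85 at 3 h. Between 60% and 65% they were 21.7% ± 7.54 and 23.7% ± 9.43 (SD, n = 3). Within GC-rich promoters CTD coverage hardly varied with the CpG ratio or with bidirectional starts. Its means over the 4 CpG classes lay between 19.4% and 21.7% without UV and between 21.6% and 23.5% at 3 h, with SDs from 5.40 to 10.6. CpG-poor relative to CpG-rich members, split at 0.6, had log2 ratios between −0.24 and 0.20 in the 6 lists at either level of GC. Bidirectional promoters had log2 ratios between −0.073 and 0.15 relative to the rest.

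Single promoters were covered by the CTD in most lists but not in the same ones. Of the 9699 members, 705 (7.27%) had a covered base in all 6 lists, 245 (2.53%) in none, and 3022 (31.2%) in exactly 4. Lists of the same condition shared members little more often than each covered all members. At 3 h, replicate 1 covered 58.0% of the members covered in replicate 2, against 54.5% of all members. Without UV, replicate 3 covered 53.2% of those covered in replicate 2, against 51.7% of all members. At 105 (1.08%) every list without UV and no 3 h list was covered, and at 131 (1.35%) the reverse held, against 1.10% and 1.37% of all promoters. With the 2 lists that stood apart left out, these counts were 552 and 597, and with only peaks of a −log10 p of 2 or more they were 0 and 3. At 313 members (3.23%) all 3 h lists had fewer covered bases than all lists without UV, and at 500 (5.16%) they had more, against 3.00% and 4.80% of all promoters. The shares at GC-rich promoters were near those of all promoters in both directions.

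The 245 members without any CTD peak were also rarely covered by H3K36me2, to 2.82% ± 0.829 without UV and 1.87% ± 0.166 at 3 h, against 12.5% ± 1.43 and 6.03% ± 0.465 over all members (SD, n = 2). Otherwise the 2 measurements were not closely tied. Of 2796 members covered in both H3K36me2 lists without UV, 2012 (72.0%) were covered in at least 2 of 3 CTD lists, as were 66.5% of all members, and these made up 31.2% of the 6451 such CTD members. At 3 h the shared members were 1008, which is 70.8% of 1423 for H3K36me2 and 14.9% of 6763 for the CTD, against 69.7% of all members.

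The promoters covered most by the CTD in their lowest list were those of PERCC1, ANKS3, RALY, ANAPC5, RPL10A and YWHAB. PERCC1 had 1401, 1120 and 1105 covered bases without UV and 1951, 1578 and 1333 at 3 h. ANAPC5, a subunit of the anaphase-promoting complex, had 746, 923 and 1006 and then 838, 1162 and 987. RPL10A, a protein of the large ribosomal subunit, had 1474, 717 and 982 and then 2000, 799 and 1105. At ANAPC5 and RPL10A the conditions overlapped, as they did at PERCC1. Fold enrichments at these 6 promoters were between 1.61 and 2.01 in every list.

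Without UV only, the CTD covered BCAN, a proteoglycan of the brain, with 1488, 1189 and 996 bases and 0 in all 3 h lists. BVES, HNRNPA0, TEAD2 and LRRC75A followed the same pattern, and so did RPL8, with 1398, 917 and 1286 bases. At 3 h only, it covered CYBA, the p22 subunit of the phagocyte NADPH oxidase, with 1180, 1703 and 1131 bases and 0 in all lists without UV. ZNF57, PLVAP and NCK2 came next. RNF4, a ubiquitin ligase that recognises SUMO chains, had 800, 1094 and 756 bases at 3 h, and UNG, the uracil-DNA glycosylase of base excision repair, had 1293, 2000 and 734. Both classes took about the same share of GC-rich promoters as of all promoters, and none of the calls without UV only was left at a −log10 p of 2 or more.

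Gene lists were read against all GC-rich promoters, with no test of their own. Developmental transcription factor genes had the most H3K36me2. Of 98 such genes 81 (82.7%) had a GC-rich promoter, and peaks covered 17.4% and 22.9% of their bases without UV and 10.1% and 11.0% at 3 h, above the 11.5%, 13.5%, 5.70% and 6.36% of all members in the same lists. Covered in both lists without UV were 34 (41.98%, against 28.8% of all members), in all 4 lists 15 (18.5%, against 13.03%), and in the lists without UV only 10 (12.3%, against 8.30%). None was covered at 3 h only, against 0.361% of all members, a call too rare for 81 promoters to show a difference.

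The 4 members of this list with the most covered bases were HOX and PAX genes, which set body position and organ identity. Both families varied widely. HOXD10, HOXD1, HOXA5, HOXA13 and HOXC13 had no H3K36me2 peak in any list, and PAX1 and PAX9 had one in a single list each. HOXB1 had 2000 covered bases in both lists without UV and 1676 and 1582 at 3 h, HOXD13 had 1811 and 1645 and then 1594 and 1302, HOXA9 had 1766 and 1694 and then 1500 and 1182, and PAX3 had 2000 and 1704 and then 817 and 1478. These 4 had fewer covered bases in both 3 h lists than in both without UV, as did 24 of the 81 (29.6%, against 19.1% of all members), while 1, HOXB4, had more (0 and 533 and then 722 and 1077, 1.23%, against 1.20%) and the others overlapped or tied. The 10 covered only without UV were DLX1, DLX6, HOXA11, HOXC8, HOXD9, NKX6-1, ALX4, FOXC2, SOX17 and TBX1. HOXA11 went from 689 and 812 bases to 0, and DLX1, a factor of forebrain and limb, from 968 and 841 to 0.

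Cytosolic ribosomal protein genes had little H3K36me2. Of 76 such genes 31 (40.8%) had a GC-rich promoter, of which 24 (77.4%, against 50.03% of all members) had none in any list. Coverage was 2.75% and 4.65% without UV and 3.08% and 2.39% at 3 h, so the conditions overlapped. The CTD covered 5 of the 31 in all 6 lists (16.1%, against 7.27% of all members), among them RPL27A with 2000, 800 and 468 bases without UV and 588, 1197 and 1066 at 3 h, and only without UV it covered RPL8 and RPL38 (6.45%, against 1.08%).

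Nucleotide excision repair removes UV lesions. Of its 33 genes 16 were GC-rich, and their H3K36me2 coverage was 5.38% and 5.52% without UV and 1.68% and 1.497% at 3 h. DDB2, a subunit of the UV lesion sensor, had 278 and 204 bases without UV and 0 at 3 h. XRCC1, a scaffold of single-strand break repair and ligation, had 223 and 931 and then 0, and XAB2 had 182 and 28 and then 0. These 3 were 18.8% of the list, against 8.30% of all members. The same 3 were the members with fewer covered bases in both 3 h lists than in both without UV. By that call 18.8% was near the 19.1% of all members. ERCC2, a helicase of the repair factor TFIIH, went the other way, with 0 and 144 bases without UV and 536 and 479 at 3 h. The CTD covered RAD23B only without UV (187, 555 and 727 bases) and GTF2H5 only at 3 h (177, 430 and 837), each 1 of 16 (6.25%, against 1.08% and 1.35% of all members).

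Of 28 genes chosen as p53 targets, 18 were GC-rich, with H3K36me2 coverage of 11.1% and 9.11% without UV and 3.46% and 3.82% at 3 h. Covered in both lists without UV and neither 3 h list were 4 (22.2%, against 8.30% of all members), namely TNFRSF10B, DDB2, FDXR and BAX. Members with fewer covered bases in both 3 h lists than in both without UV made up 22.2%, against 19.1% of all members. TNFRSF10B, a death receptor, had 1114 and 1370 bases without UV. BAX, which permeabilises mitochondria in apoptosis, had only 58 and 156. PHLDA3, covered in all 4 lists, had 675 and 448 without UV and 462 and 481 at 3 h.

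Immediate early and stress response genes had 26 GC-rich promoters of 30. H3K36me2 covered 12.3% and 14.9% of their bases without UV and 7.95% and 7.90% at 3 h. EGR2 and EGR3, growth response factors, were covered only without UV, EGR3 with 838 and 1800 bases. These 2 of 26 (7.69%) were near the 8.30% of all members. DUSP5, a phosphatase of MAP kinases, had 1551 and 1533 and then 2000 and 1469, which overlapped. The CTD covered 26.7%, 13.3% and 20.3% of the list's bases in unirradiated cells, and 16.1%, 25.5% and 49.4% at 3 h, so its conditions overlapped.

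JUN had the most CTD coverage in that list. Its promoter, which held no H3K36me2 peak in any list, had 748, 238 and 14 CTD-covered bases without UV and 2000, 1936 and 2000 at 3 h. The conditions did not overlap, as at 5.16% of all members in that direction. JUND was covered by the CTD only at 3 h (140, 1459 and 777 bases). EGR1 had 1161, 63 and 339 bases without UV and 1215, 505 and 1855 at 3 h, and JUNB had 368, 745 and 479 and then 1268, 0 and 1445. Both overlapped between conditions, and 3 of the 26 promoters had more CTD coverage in every 3 h list (JUN, JUND and ATF4, which is 11.5%) and 1 less (IER2, 3.85%), against 5.16% and 3.23% of all members.

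DNA replication and cell cycle genes had 24 GC-rich promoters of 56, with H3K36me2 coverage of 5.30% and 4.45% without UV and 0.871% and 1.90% at 3 h. MCM6, a subunit of the replicative helicase, and RRM1, of ribonucleotide reductase, were covered only without UV, MCM6 with 473 and 377 bases. These 2 of 24 (8.33%) were near the 8.30% of all members. MCM5 had 284 and 223 bases without UV and 222 and 51 at 3 h. The CTD covered MCM5 with 1317, 583 and 356 bases without UV and 1472, 1408 and 1086 at 3 h, which overlapped. It covered CCNE2, a cyclin of the G1 to S transition, only at 3 h (140, 44 and 753 bases). That is 4.17% of the 24, against 1.35% of all members. Only without UV the CTD covered 2 of the 24 (8.33%, against 1.08%).

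Genes of H3K36 methylation, ASH1L and FACT had 16 GC-rich promoters of 21, of which 11 held no H3K36me2 in any list (68.8%, against 50.03% of all members). The ASH1L promoter was one of them, and the CTD covered 461 and 169 of its bases in replicates 1 and 2 at 3 h and none in the other 4 lists. NSD1, an H3K36 dimethylase, had the most, with 674 and 1203 bases without UV and 1312 and 869 at 3 h. KDM2A, the demethylase named above, had 469 and 371 and then 346 and 399. This was the list with the smallest H3K36me2 difference, with coverage of 4.87% and 6.07% without UV and 6.29% and 4.03% at 3 h.

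**Figure D5:**
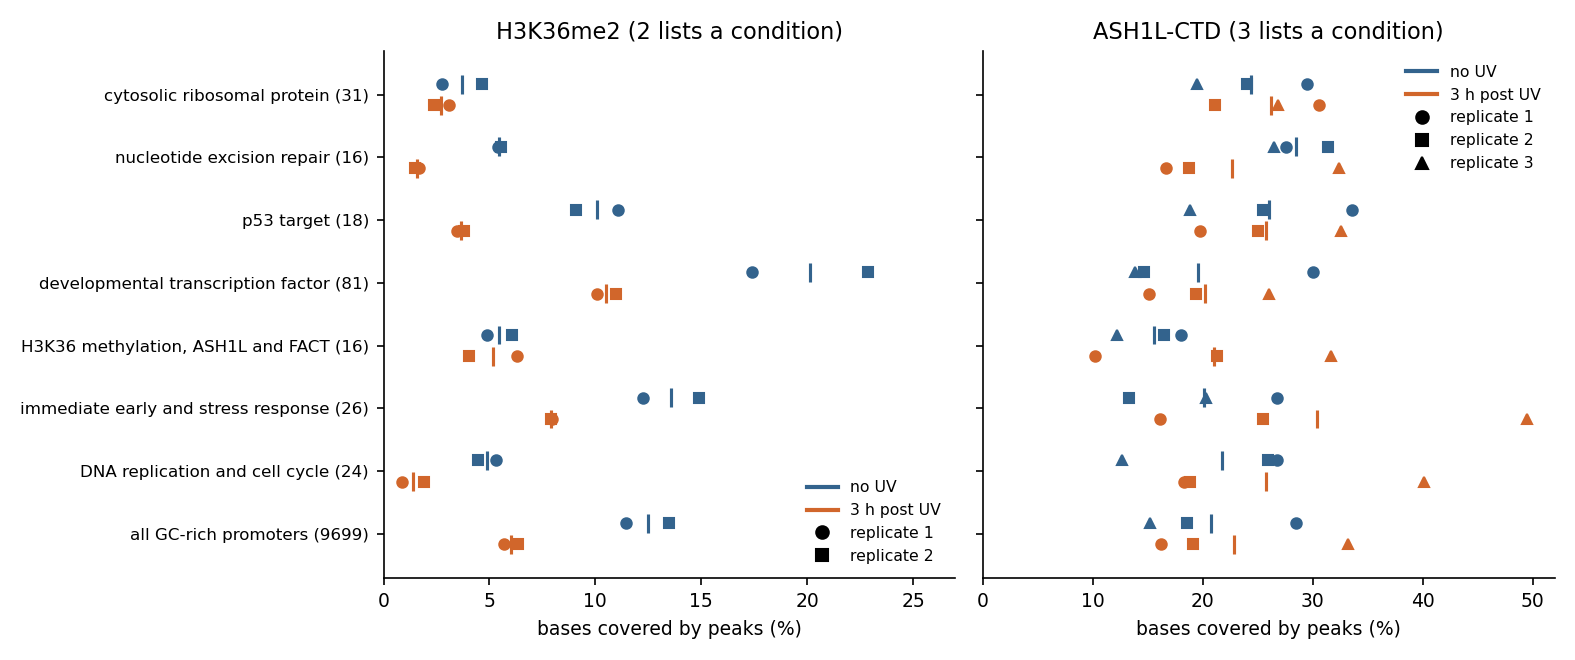
Share of bases covered by peaks (%, horizontal axis) in the GC-rich promoters of 7 gene lists and of all members (number of promoters in brackets), one point per list of peaks with the shape giving the replicate number, and short lines for the mean of each condition. H3K36me2 is highest at developmental transcription factor genes (17.4% and 22.9% without UV) and its conditions overlap at ribosomal protein genes, whereas CTD conditions overlap in all 7 lists.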

How the data were processed

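H3K36me2 and Flag-CTD ChIP-seq peaks were taken from U2OS cells. The DNA was treated with a repair mix that removes UV lesions before library preparation. The authors trimmed reads (Trim Galore 0.6.5), mapped the remainder against hg38, leaving out chromosome Y (BWA 0.7.17-r1188), removed reads of low mapping quality, duplicates and blacklisted regions (Picard, SAMtools 1.7, bedtools 2.29.2), and called broad peaks in each replicate (MACS2 2.2.7.1). Single-end and paired-end H3K36me2 reads were pooled before calling. H3K36me2 was compared with pooled inputs. The CTD was compared with pooled empty-vector libraries at 3 h and with unpooled ones without UV, so that step differed between conditions. Each deposited peak has a fold enrichment (the ratio of ChIP to control) and a deposited −log10 p-value and q-value. Fold enrichment was used for ranking and description only.

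Windows were built from GENCODE release 44 and the hg38 sequence. Overlapping windows were merged for densities and shares of bases, giving 17.7 Mbp of GC-rich promoters. The mean of the lists was compared between conditions with an exact permutation test, two-sided, whose smallest p is 0.333 for H3K36me2 and 0.1 for the CTD, adjusted by Benjamini-Hochberg over the 10 tests. No comparison could pass 0.05. Named genes were the 6 promoters with the most covered bases in their lowest list, for all lists, for lists without UV only and for 3 h lists only, with ties broken by fold enrichment, and in each gene list the members with the most covered bases and those covered in one condition only. JUN, JUND, ATF4, IER2 and HOXB4 are also named for lists that did not overlap, a choice made after their values were seen. One gene that this rule names is not reported here. The members and gene lists were chosen with earlier results of these data known. The lists hold no read counts, so depth is unknown and no counting intervals are given.

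Alternatives were stricter peaks, peaks found in another replicate, other GC thresholds and window sizes, a replicate block, and leaving out each replicate. The counting functions were tested on simulated lists and against bedtools 2.31.1. Computation used SciPy 1.17.1, NumPy 2.4.6 and pandas 2.3.3 in Python 3.11.15, with figures from matplotlib 3.10.9.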

Additional observations from a re-analysis of the deposited data

How the results depend on the processing

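Values here are 3 h relative to no UV, on the log2 scale for densities and shares. H3K36me2 at GC-rich promoters was lower at 3 h under all 11 alternatives for density (−1.33 to −0.62) and all 10 for bases covered (−1.75 to −0.91), and its density relative to GC-poor promoters was lower under all 10 (−0.82 to −0.47). Its density relative to GC-rich windows was near 0 and changed sign with peaks kept from a −log10 p of 3 (−0.072) or a −log10 q of 1.3 (−0.12) upwards, peaks found in another replicate (−0.0076), 50% GC (−0.088), windows of 500 bp either side (−0.098) and without replicate 2 (−0.025, against 0.095 without replicate 1). Downstream against upstream coverage of H3K36me2 was 0.035 with 500 bp. CTD values also changed sign, namely density (−0.18) and bases covered (−0.0038) at a −log10 p of 3 or more, density relative to GC-poor promoters at a −log10 p of 2 or more (0.013) and at 50% GC (0.022), and density relative to windows at a −log10 p of 2 (−0.00090) and 3 (−0.00056) or more. Leaving out each CTD replicate gave −0.26 to 0.31 for density, −0.41 to 0.63 for bases covered, −0.18 to 0.095 relative to GC-poor promoters and −0.062 to 0.12 relative to windows, and leaving out the 2 lists that stood apart gave −0.021 for density, a setting chosen after seeing the data.

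Counts of promoters covered in one condition only moved by more than 1.5 times under most settings, and no test applies to them. H3K36me2 only without UV was 455, 158 and 194 at a −log10 p of 2 or 3 or a −log10 q of 1.3, 1292 with peaks found in another replicate, 476 at 60% GC, 466 with 500 bp, 431 with a peak centre and 1778 to 2035 with 1 replicate left. H3K36me2 only at 3 h was 6 and 7 at a −log10 p of 3 and a −log10 q of 1.3, 105 with peaks found in another replicate, 61 and 20 at 50% and 60% GC, 13 with 500 bp, 86 with a peak centre and 285 to 306 with 1 replicate left. The first exceeded the second in each. CTD only without UV and only at 3 h were 0 and 3 at a −log10 p of 2, 0 and 0 at 3 and at a −log10 q of 1.3, 496 and 773 with peaks found in another replicate, 60 and 58 at 60% GC, 278 to 791 and 338 to 859 with a replicate left out, and 552 and 597 without the 2 lists that stood apart. No CTD density could be computed at a −log10 q of 1.3. In the paired fit with a replicate block, H3K36me2 density was −0.74 (exact sign-flip p = 0.5) and CTD density 0.044 (p = 1), and no direction changed. Whether same-numbered lists share more than a number is unknown. Their deviations from the condition means correlated at 0.043 for H3K36me2 and between −0.027 and 0.0040 for the CTD. With 2 H3K36me2 lists per condition, lists of unlike number necessarily gave the mirrored −0.043, so this value cannot decide the question. H3K36me2 density was higher in replicate 2 than in replicate 1 in both conditions. Depth is unknown, and the causes of these changes were not tested.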
